A study of Mus musculus with 6 samples.

Results

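The genes described here bind, take up, activate, desaturate and elongate long-chain fatty acids in liver: the binding proteins Fabp1, Fabp2 and Fabp5, the uptake receptor Cd36, the acyl-CoA synthetases Acsl1, Acsl3 and Acsl5, the desaturases Fads1 and Fads2, and the elongase Elovl5. They were chosen by gene symbol, and 8 of the 10 had at least 1 probe set named in the annotation used here, 14 probe sets of 11778 in all. Acsl1 and Acsl3 had none and were not analysed here. Of the 14 probe sets, 13 reached the minimum mean signal of 100 and were tested among 10620, and in these 13 the mean of each genotype was above 100, so none passed through 1 genotype alone.

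Total RNA was measured in 3 liver samples of mice lacking Atp7b (KO903, KO904 and KO905) and 3 liver samples of wild-type mice (WT4, WT5 and WT6), with 1 Affymetrix array per sample. Atp7b encodes the copper-transporting ATPase that is lost in Wilson disease, and the series title places the samples early in copper accumulation. The labels refer to a published knockout line without naming the allele, and they give no strain, sex, age, diet or time of sampling for either genotype. Whether the samples come from separate animals is not stated outright, so the p-values refer to the variation among the arrays at hand, which may be technical. Of 8 tested hepatocyte markers none was called, and 5 log2 differences were below 0 and 3 above (median -0.06). In 2 of the 8 every knockout value lay below every wild-type value, as in 10.1% of all tested genes. The summed signal of the 8 was 121048 to 138029 in knockout and 125230 to 151646 in wild-type livers. Array medians lay between 330.8 and 342.8. The ratio of 3' to 5' actin signal was 1.17 to 1.22 in knockout and 1.1 to 1.47 in wild-type arrays, with the highest value in WT6.

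Long-chain fatty acids entering a hepatocyte are bound by cytosolic fatty acid binding proteins and esterified to coenzyme A by acyl-CoA synthetases, which commits them to oxidation, storage or membrane lipids. Fads2 and Fads1 introduce double bonds into polyunsaturated chains at successive steps, and Elovl5 lengthens the chains between those steps. In liver, PPARalpha is known to induce genes of fatty acid binding and oxidation, and SREBP-1 to induce genes of synthesis, desaturation and elongation.

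In the knockout livers, Fabp5 was called lower on both of its probe sets, at 0.308 and 0.231 of the wild-type level. Fads2 was called lower on 1 of its 2 probe sets, at 0.619, and the other, at 0.788, did not pass. None of the 8 genes was called higher, though 2 of them, Fabp2 and Cd36, had log2 differences above 0. Folds and log2 differences are of signal plus 16, which understates changes of dim probe sets. Where the brightest tested probe set stood for a gene, 2 of 8 genes were called lower at an adjusted p under 0.05 in limma, while 1.80% of all 6604 tested genes were called lower. Elovl5 and Fads1 had every knockout value below every wild-type value and missed the threshold. The median log2 difference over the 8 genes was -0.19 (knockout minus wild type), beside 0.03 over all tested genes. Those 8 were picked with earlier results of these arrays known, Fabp5 among them, so the count and the median are descriptions.

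The promoters below of 3 genes are shown because their genes differ in what the arrays measured: Fads2 was called lower, Elovl5 was lower without passing the test, and Fabp1, the main fatty acid binding protein of liver, was not called. They run from 250 bases before to 50 after the annotated start, are given 5' to 3' on the gene's strand, and come from RefSeq on GRCm38.p6. In all, 4 motifs were searched on both strands: the PPAR element, which is AGGNCA repeated after a gap of 1 base, the sterol regulatory element TCACNCCAC, the CCAAT box and the E-box CACGTG. Matches are in capitals. The Fads2 promoter lies at chr19:10101454-10101753 (minus strand), that of Elovl5 at chr9:77917115-77917414 (plus strand) and that of Fabp1 at chr6:71199629-71199928 (plus strand).
Fads2: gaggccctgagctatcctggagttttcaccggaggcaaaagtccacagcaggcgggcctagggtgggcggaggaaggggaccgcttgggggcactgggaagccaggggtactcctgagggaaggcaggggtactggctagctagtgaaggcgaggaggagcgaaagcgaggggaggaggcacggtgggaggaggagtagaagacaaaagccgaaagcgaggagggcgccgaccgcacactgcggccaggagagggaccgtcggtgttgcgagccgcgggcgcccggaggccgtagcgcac
Elovl5: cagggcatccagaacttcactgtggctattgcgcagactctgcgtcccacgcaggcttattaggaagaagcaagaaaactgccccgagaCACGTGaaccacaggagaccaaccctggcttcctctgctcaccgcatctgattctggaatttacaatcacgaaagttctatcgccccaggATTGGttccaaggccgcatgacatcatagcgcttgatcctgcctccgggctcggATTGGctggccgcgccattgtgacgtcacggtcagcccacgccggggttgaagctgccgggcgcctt
Fabp1: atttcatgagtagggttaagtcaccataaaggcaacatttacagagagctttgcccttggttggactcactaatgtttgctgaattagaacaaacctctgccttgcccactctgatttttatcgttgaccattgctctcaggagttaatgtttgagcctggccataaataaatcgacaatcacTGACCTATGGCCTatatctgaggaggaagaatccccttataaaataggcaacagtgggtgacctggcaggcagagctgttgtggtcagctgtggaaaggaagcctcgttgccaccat
The Fabp1 promoter held 1 match to the PPAR element, beginning 67 bases before the start, a motif found in 0.381% of 32851 promoters of this length. The Elovl5 promoter held an E-box 161 bases before the start, found in 7.15% of promoters, and 2 CCAAT boxes, found in 37.4%. None of the 4 motifs was matched in the Fads2 window, and the sterol regulatory element, found in 1.24% of promoters, was matched in none of these 3. These are matches of letters only. The table held promoters for 8 of the 10 genes.

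Among the binding proteins, Fabp5 differed most. Fabp5 encodes the epidermal type of fatty acid binding protein, which in liver is found beside the more abundant Fabp1. Its brighter probe set (1416021_a_at) had signals of 2360, 877.9 and 2287 in KO903, KO904 and KO905, against 6720.3, 5593 and 4429 in WT4, WT5 and WT6. All 3 knockout values lay below all 3 wild-type values, with KO904 lowest of all and WT6 lowest of its genotype. Mean signals were 1842 ± 835 in knockout livers and 5581 ± 1146 in wild-type livers (SD, n = 3 each), and the log2 difference was -1.70 ± 0.31 (SE; adjusted p = 0.0136). The other Fabp5 probe set (1416022_at) had signals of 1034.5, 360.3 and 902 in KO903, KO904 and KO905, against 4443, 3490.1 and 1869 in WT4, WT5 and WT6. KO904 was again the lowest array, and WT6 again the lowest of the wild type. Mean signals here were 766 ± 357 in knockout livers and 3267 ± 1302 in wild-type livers (SD, n = 3 each), and the log2 difference was -2.11 ± 0.37 (SE; adjusted p = 0.0106). That probe set was among the 7 of 10620 with the lowest log2 differences. The call held on both probe sets with each array left out, with adjusted p up to 0.0473, and the log2 difference of the brighter one was weakest without KO904 (-1.24) and strongest without KO903 (-1.94). It was lost with limma's robust variance estimate (adjusted p = 0.0555 and 0.0623).

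In whole liver RNA, fewer cells of a type and less RNA per cell cannot be told apart. Macrophages and endothelial cells also express Fabp5 and Cd36. None of 9 tested macrophage markers was called, all 9 log2 differences were above 0 (median 0.33), and their summed signal was 6142 to 8248 in knockout and 4446 to 6239 in wild-type livers. None of 8 tested endothelial markers was called, 7 were above 0 (median 0.13), and their summed signal was 2550.1 to 3154 in knockout and 2188 to 2510 in wild-type livers. The endothelial marker below 0 was Lyve1 (log2 -0.56, adjusted p = 0.202). Of the adipocyte markers only Fabp4, which encodes the adipocyte binding protein, was tested, at 91.2 to 122 in knockout and 99 to 179 in wild-type livers (log2 -0.31, adjusted p = 0.507). Of stellate cell markers 4 were tested, of lymphocyte and neutrophil markers 1 each, and none was called. None of the 7 listed cholangiocyte markers had a named probe set, so they gave no value. No marker was listed at 0, and the part of all these cells in the result was not tested.

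Fabp1, the predominant binding protein of hepatocytes and a PPARalpha target, was not called. On its brighter probe set (1417556_at) the signals were 23088, 20530.4 and 18959 in KO903, KO904 and KO905, against 22587, 23024 and 23133 in WT4, WT5 and WT6. KO903 stood with the wild-type arrays and the genotypes overlapped. The log2 difference was -0.14 (95% interval -0.34 to 0.06, adjusted p = 0.462), so a fall as large as that of Fabp5 lies outside the interval. The other Fabp1 probe set (1448764_a_at) had signals of 12587 to 14254 in knockout and 12160.4 to 14912 in wild-type livers, with a log2 difference of -0.05 (95% interval -0.27 to 0.17).

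Fabp2, the intestinal binding protein, was measured in liver at 1122, 1028 and 1103 in KO903, KO904 and KO905, against 674, 1215 and 883 in WT4, WT5 and WT6. The knockout values lay inside the wild-type range, which spanned them on both sides. The log2 difference was 0.27 ± 0.18 (SE; 95% interval -0.13 to 0.66; adjusted p = 0.493). Of the other enterocyte markers only Apoa4, which liver also makes, was tested, and it was not called (log2 -0.14, adjusted p = 0.791).

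**Figure D1:**
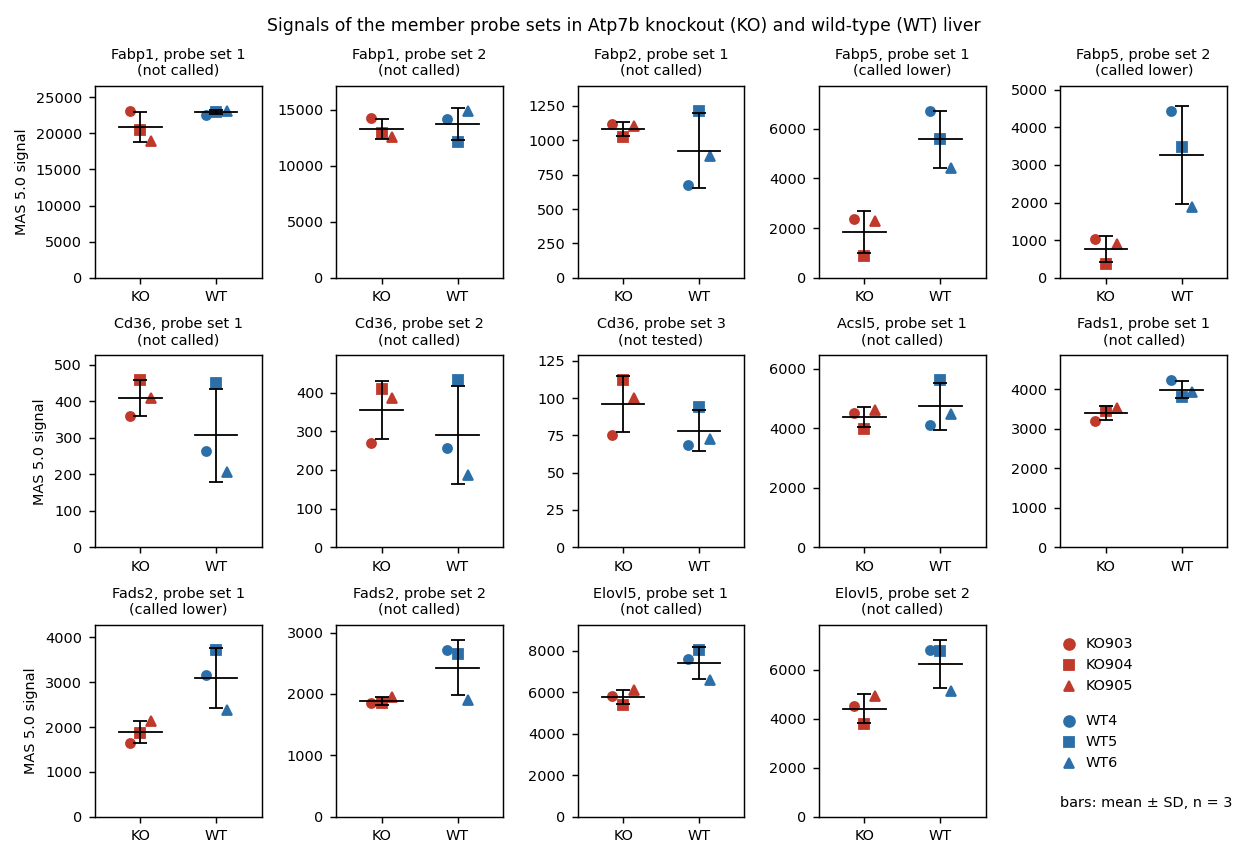
MAS 5.0 signal (linear axis from 0, arbitrary units) of each of the 14 probe sets in knockout (red, left) and wild-type (blue, right) livers, with the array given by the marker shape; horizontal lines are means and bars SD, n = 3. The Fabp5 panels show knockout signals of at most 2360 and 1034.5, below every wild-type value, while the Fabp1, Fabp2, Cd36 and Acsl5 panels overlap.

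Cd36, which encodes a membrane receptor for long-chain fatty acids and lipoproteins, had the highest log2 difference of the 8 genes and was not called. Its brightest probe set (1423166_at) had signals of 361, 457.5 and 408 in KO903, KO904 and KO905, against 264, 450.4 and 207 in WT4, WT5 and WT6. WT5 lay among the knockout values, and WT4 and WT6 lay below them. The log2 difference was 0.46 ± 0.23 (SE; 95% interval -0.05 to 0.97; adjusted p = 0.335), and without WT5 it was 0.76 and called higher (adjusted p = 0.0303). The next probe set (1450883_a_at) gave 0.33 ± 0.26 (SE; adjusted p = 0.562), with signals of 270.2 to 409.6 in knockout and 186 to 432 in wild-type livers. The dimmest (1450884_at), at 75.3 to 112 in knockout and 68.2 to 93.8 in wild-type livers, was below the signal minimum and was not tested. All 3 probe sets had WT5 as the highest wild-type array.

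Cd36 is known to be higher in female than in male rodent liver, and the labels give no sex. Xist, the RNA that coats the inactive X chromosome in female cells, had signals on its brightest probe set of 4284, 3617 and 3887 in KO903, KO904 and KO905, against 2942.5, 4048 and 3529 in WT4, WT5 and WT6 (log2 0.17, adjusted p = 0.534). All 6 arrays had signal on this probe set, from 2942.5 (WT4) to 4284 (KO903), beside array medians of 330.8 to 342.8. No array therefore lacked this RNA of female cells. Of 5 sex chromosome genes listed, only Xist had a probe set, so the others gave no value. The genotypes overlapped on the brightest Xist probe set, but on the 2 dimmer ones every knockout value lay below every wild-type value. These had signals of 1097 to 1133 in knockout and 1184 to 2385 in wild-type livers (log2 -0.53, adjusted p = 0.202), and of 107 to 147 in knockout and 154 to 358 in wild-type livers (log2 -0.61, adjusted p = 0.282), and neither was called. Of genes with male-predominant expression 3 of 5 tested were called higher in the knockout, and of those with female-predominant expression 2 of 4, beside 2.14% of all tested genes called higher. The male-predominant genes called were Cyp7b1, Cyp2d9 and Gstp1 (log2 1.33, 1.02 and 0.57), and the female-predominant ones were Cyp2c39 and Prom1 (log2 3.07 and 1.12). Their part in the Cd36 values was not tested.

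Of the acyl-CoA synthetases, Acsl5, an enzyme of mitochondria and endoplasmic reticulum, was measured by 1 probe set (1428082_at). Its signals were 4512, 3988 and 4602 in KO903, KO904 and KO905, against 4108, 5613 and 4487 in WT4, WT5 and WT6. Apart from the high value of WT5 the arrays lay close together. The log2 difference was -0.11 ± 0.13 (SE; 95% interval -0.38 to 0.17; adjusted p = 0.728).

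The desaturases and the elongase had negative log2 differences on each of their 5 probe sets, 1 of which was called. Fads2, which catalyses the first desaturation of linoleic and alpha-linolenic acid, had signals of 1651, 1863 and 2145 in KO903, KO904 and KO905 on its brighter probe set (1419031_at), against 3169, 3723 and 2387 in WT4, WT5 and WT6. The genotypes did not overlap, and WT6 lay nearest to the knockout arrays. Mean signals were 1886 ± 247 in knockout livers and 3093 ± 671 in wild-type livers (SD, n = 3 each), a log2 difference of -0.69 ± 0.16 (SE; adjusted p = 0.0365). The other Fads2 probe set (1449325_at) had signals of 1854, 1847 and 1951 in KO903, KO904 and KO905, against 2718, 2650.5 and 1907 in WT4, WT5 and WT6. Here WT6 lay inside the knockout range, and the log2 difference of -0.34 ± 0.14 (SE) did not pass (adjusted p = 0.217). The call on the brighter probe set ended when any 1 array except WT6 was left out (adjusted p 0.0587 to 0.135), when both probe sets were averaged (0.0607) and when the variance was modelled without an intensity trend (0.0747). Without WT6, both Fads2 probe sets were called lower (adjusted p = 0.0109 and 0.0407). WT6 had the highest 3' to 5' ratios of actin (1.47) and Gapdh (0.99), and the part of RNA quality in these calls was not tested.

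Fads1, which carries out the later desaturation that yields arachidonic and eicosapentaenoic acid, had signals of 3186, 3443 and 3531 in KO903, KO904 and KO905, against 4225, 3795 and 3937 in WT4, WT5 and WT6 (1423680_at). The genotypes did not overlap, but the gap between them was smaller than the range within either. The log2 difference was -0.23 ± 0.10 (SE; 95% interval -0.45 to -0.02) and did not pass (adjusted p = 0.236). Fads1 and Fads2 are neighbours on chromosome 19 in the RefSeq order of protein-coding genes (GRCm38.p6), with Fads3, a related gene not analysed here, on the far side of Fads2.

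Elovl5, which elongates the polyunsaturated products of Fads2, had signals of 5837, 5399 and 6099 in KO903, KO904 and KO905 on its brighter probe set (1437211_x_at), against 7614, 8055 and 6593 in WT4, WT5 and WT6. The suffix x marks probes that can also bind other transcripts. The other probe set (1415840_at) had signals of 4501, 3781 and 4932 in KO903, KO904 and KO905, against 6806, 6751 and 5109.6 in WT4, WT5 and WT6. On both, every knockout value lay below every wild-type value and WT6 was the lowest wild-type array. The log2 differences were -0.36 ± 0.10 and -0.49 ± 0.14 (SE), with adjusted p of 0.0842 and 0.0727, and the dimmer probe set was called lower without WT6 (adjusted p = 0.0339).

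Across the 8 genes, 4 had all knockout values below all wild-type values on the brightest probe set (Fabp5, Fads2, Fads1 and Elovl5), and none had them all above. Among all tested genes, 10.1% had every knockout value below every wild-type value. In Fabp5, Fads2 and Elovl5, WT6 was the lowest wild-type array on both probe sets of each.

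**Figure D2:**
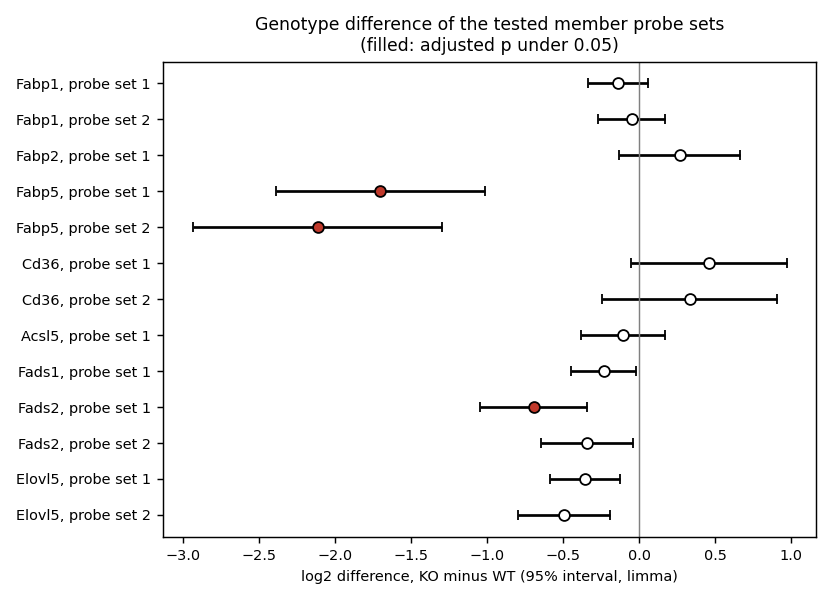
Log2 difference (knockout minus wild type) of the 13 tested probe sets with 95% intervals from limma; filled points have an adjusted p under 0.05. Fabp5 stands at -1.70 and -2.11, Fads2 at -0.69 and -0.34, and the intervals of Fabp1, Fabp2, Cd36 and Acsl5 include 0.

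**Figure D3:**
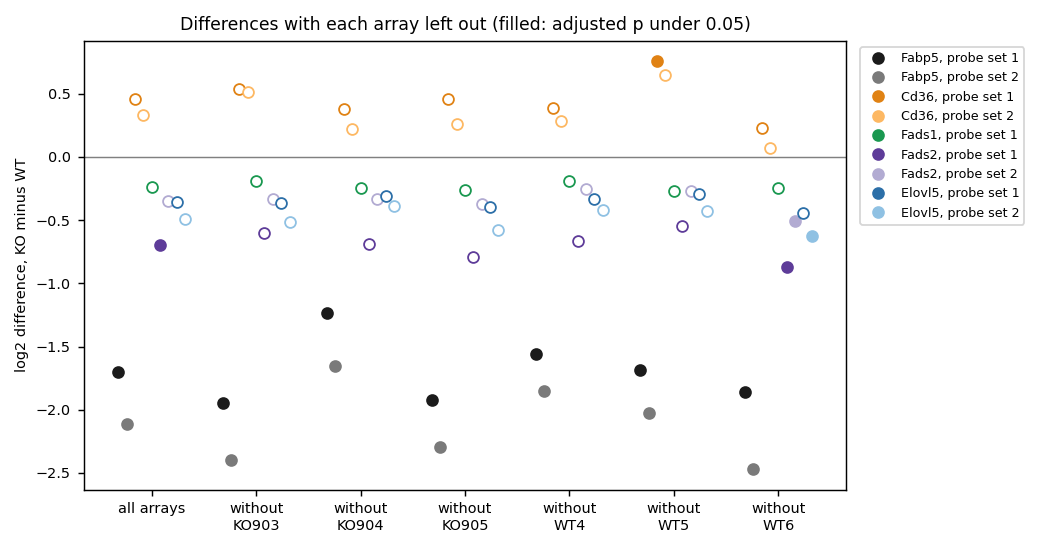
Log2 difference (knockout minus wild type) of 9 probe sets of Fabp5, Cd36, Fads1, Fads2 and Elovl5 with all 6 arrays and with each array left out; filled points have an adjusted p under 0.05. Fabp5 stayed called throughout, while the brighter Fads2 probe set was called with all arrays and without WT6.

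The other genes of the pathway were described from whole lists. Of 11 further genes of fatty acid uptake and binding, none was called, and their median log2 difference was 0.02, from -0.38 to 0.36. The smallest p-values were those of Slc27a2, a very-long-chain acyl-CoA synthetase of the peroxisome and endoplasmic reticulum (7813 ± 571 in knockout livers and 9194 ± 713 in wild-type livers; SD, n = 3 each; adjusted p = 0.235), and Plin5, a lipid droplet protein (339 ± 78.7 in knockout livers and 438 ± 14.1 in wild-type livers; SD, n = 3 each; adjusted p = 0.269). Dbi, the acyl-CoA binding protein, lay at 8566 to 8863 in knockout and 7905 to 9696 in wild-type livers.

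Of 14 further genes of acyl-CoA synthesis and hydrolysis, 1 was called lower and none higher, with a median log2 difference of -0.17. The call was Acot3, a peroxisomal acyl-CoA thioesterase, with signals of 489, 700.3 and 692 in KO903, KO904 and KO905, against 1272, 879 and 2147 in WT4, WT5 and WT6. The genotypes did not overlap, but the wild-type values were spread widely (log2 -1.09 ± 0.27 SE, adjusted p = 0.0453), and the call ended without KO903, KO904 or WT4. The Acot genes are close paralogues, so probes for one can bind transcripts of another. Acss2, which makes acetyl-CoA from acetate, had the lowest log2 difference of the list (-1.14 ± 0.32 SE, adjusted p = 0.0758), with signals of 1514 to 2401 in knockout and 2348 (WT6) to 7222 (WT5) in wild-type livers.

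Of 14 further genes of desaturation and elongation, 1 was called lower and none higher, with a median log2 difference of -0.13. This was Elovl6, which elongates saturated and monounsaturated chains, with signals of 833, 767 and 813.5 in KO903, KO904 and KO905, against 1942, 2489 and 1163 in WT4, WT5 and WT6 (log2 -1.13 ± 0.22 SE, adjusted p = 0.0172). The knockout arrays lay close together and below the wild type, and a dimmer Elovl6 probe set fell as well (log2 -1.47, adjusted p = 0.0107). The count of this list was 0 without KO903, KO904, KO905 or WT4, and 2 without WT6. Elovl2, which elongates the longer polyunsaturated chains downstream of Elovl5, had a log2 difference of -0.42 ± 0.11 (SE; adjusted p = 0.0609). Scd1, the main desaturase of saturated chains in liver, lay at 12852 to 14929 in knockout and 13304 to 20590.1 in wild-type livers and was not called (log2 -0.18, adjusted p = 0.562). Hacd2, a dehydratase of the elongation cycle, and Degs1, a sphingolipid desaturase, had positive log2 differences (0.31 and 0.33, adjusted p = 0.102 and 0.133). For Degs1 this was the brighter probe set, and the other stood at -0.01 (adjusted p = 0.981).

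**Figure D4:**
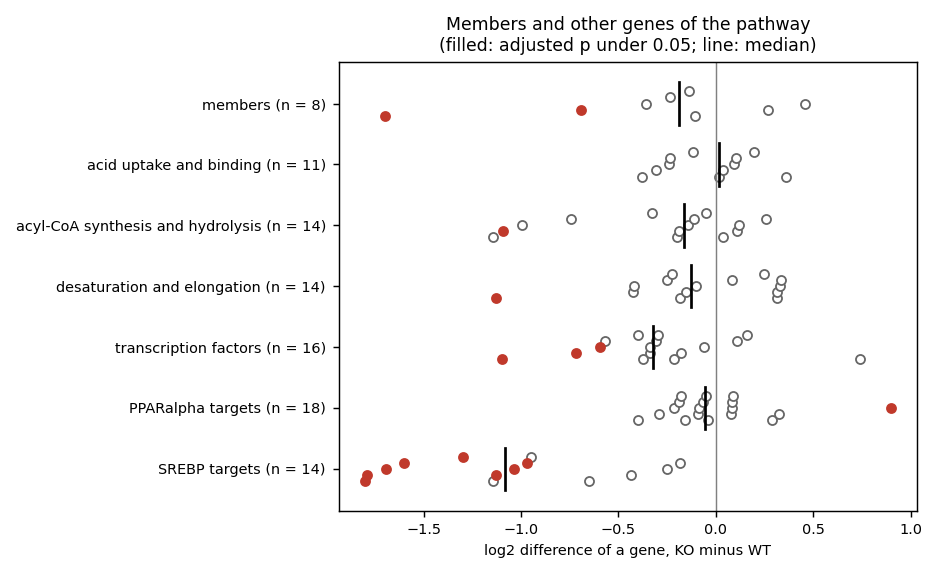
Log2 difference (knockout minus wild type) of each tested gene, on its brightest probe set, for the 8 genes described here (members) and 6 lists of related genes; filled points have an adjusted p under 0.05 and vertical lines are medians. The median of the SREBP targets lies at -1.08, and those of the other lists between -0.32 and 0.02.

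A further list held transcription factors and cofactors that act on these genes, and the SREBP regulators Scap and Insig2. Among its 16 tested genes, 3 were called lower and none higher. Of the 16, 13 had log2 differences below 0 and 3 above, the highest being that of Insig2 (0.74 ± 0.24 SE, adjusted p = 0.114). Ppara, which encodes PPARalpha, had signals of 1233, 1390.2 and 1067 in KO903, KO904 and KO905, against 2380, 2374 and 3250.4 in WT4, WT5 and WT6 (log2 -1.10 ± 0.15 SE, adjusted p = 0.00258). Srebf1, which encodes SREBP-1, had signals of 2192, 1634 and 1858 in KO903, KO904 and KO905, against 3786, 2702 and 2914 in WT4, WT5 and WT6 (log2 -0.72 ± 0.15 SE, adjusted p = 0.0235). In both genes the genotypes were apart. Srebf2, which encodes SREBP-2, was not called on either probe set (log2 -0.18 and -0.10, adjusted p = 0.751 and 0.763). Ahr, the aryl hydrocarbon receptor, was called on its brighter probe set (log2 -0.59 ± 0.14 SE, adjusted p = 0.0404) and not on another (log2 -0.10, adjusted p = 0.826). With 1 array left out, 1 to 3 of these genes were called lower, the count being 1 without KO904, KO905 or WT4, and 1 was called higher without WT5.

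Known targets of PPARalpha, and of SREBP-1 and SREBP-2 together, were also counted. The SREBP list was not divided between SREBP-1 and SREBP-2. Of 18 tested PPARalpha targets, Vnn1, a pantetheinase, was called higher (log2 0.90 ± 0.19 SE, adjusted p = 0.0233), a call that ended without KO903 or KO905. None of the 18 was called lower, and the list median was -0.06. The Acot genes were not in this list but in that of acyl-CoA synthesis and hydrolysis, where Acot3 was called lower. Of 14 tested SREBP targets, Elovl6 among them, 8 were called lower, beside 1.80% of all tested genes. None was called higher, and the median was -1.08. Those called lower were Idi1, Hmgcs1, Stard4, Fdft1, Thrsp, Elovl6, Sqle and Fasn, whose log2 differences lay between -0.97 and -1.80. The other 6 (Acly, Acss2, Gpam, Acaca, Me1 and Scd1) had log2 differences below 0 and were not called. The count called lower was 5 without KO903, KO904 or WT4, 6 without KO905, 7 without WT5 and 10 without WT6. The fall of sterol and lipogenic genes was known when Fads2 and Elovl5 were chosen and is not independent of that choice.

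Genes that vary with the time of day or with feeding were counted too. Of 9 tested clock genes, Dbp and Tef, output factors of the clock, were called lower (log2 -1.50 ± 0.19 and -0.67 ± 0.13, SE, adjusted p = 0.00162 and 0.0176) and none higher. Of the 9, 8 had non-overlapping genotypes, beside 24.1% of all tested genes. The direction was mixed: in 6 the knockout lay below the wild type, and in 2, Clock and Nr1d1, above it (log2 0.56 and 0.31). Of 8 tested genes that respond to fasting, none was called, with a median log2 difference of -0.31. The labels give no time of sampling and no feeding state, and the part of either in the values of Fabp5, Fads2 and Elovl5 was not tested.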

How the data were processed

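The authors deposited MAS 5.0 signals, a linear intensity per probe set, and scaled each whole array to a target average of 350, per the labels. Per the labels' protocols, RNA was isolated with TRIzol and labelled with an Enzo kit. The table held 11811 probe sets, and the sources used here do not say how these were selected. No detection calls were used, and no pair of arrays shared more than 0.0847% of its values.

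The members and gene lists were chosen with earlier results of these data known. Named were the members on every probe set, called genes of the gene lists, and the 2 genes with the smallest p in a pathway list without calls; cell type marker lists and the fasting list were given as counts; the other genes named were picked after their values were seen. Control probe sets (33) and those with a mean signal under 100 (1158) were left out, which left 10620. Knockout minus wild type was fitted on log2(signal + 16) with limma (lmFit, then eBayes with its variance trend on mean signal) in a two-sided test, and p-values were adjusted by Benjamini-Hochberg over the 10620, at a threshold of 0.05. Folds on this scale understate changes of low signals. Standard errors and 95% intervals are limma's. The brightest tested probe set stood for a gene. Sample numbers do not match between groups, so samples were not paired. An exact permutation test of 3 against 3 cannot go below 0.1 and was not used. The number of arrays limits the precision.

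Gene names came from the annotation of the array platform, with symbols looked up through Entrez identifiers in RefSeq (GRCm38.p6): 10776 had 1 symbol, 418 several and 584 none. The script was tested on simulated data. Alternatives were quantile normalization, median centring, a pseudocount of 1 or 64, no signal filter or a minimum of 200, eBayes without trend or robust, array weights, averaging a gene's probe sets, and leaving out each sample. Versions were R 4.3.3, limma 3.58.1, Python 3.11.15 and matplotlib 3.10.9.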

Additional observations from a re-analysis of the deposited data

How the results depend on the processing

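Across the 16 alternatives, no called member changed direction. The count of member genes called lower (2) was 1 with eBayes without the trend, where Fads2 was lost, with robust eBayes, where Fabp5 was lost, and with the mean over probe sets, where Fads2 was lost. With 1 array left out it was 1 to 2, with Fads2 lost without KO903, KO904, KO905, WT4 or WT5, and the count called higher (0) was 0 to 1, with Cd36 added without WT5. The median log2 difference of the members stayed between -0.21 and -0.17. Over all probe sets, 440 were called, and 175 to 475 with 1 array left out. The lowest counts came without KO904 (175), KO903 (193), KO905 (228), WT4 (254) and WT6 (272). With 1 array left out, the log2 difference of Acsl5 ranged from -0.20 to 0.022 (without WT5) and that of the dimmer Fabp1 probe set from -0.13 to 0.013 (without WT6), neither called under any alternative. The counts of the wider lists with 1 array left out were chosen after seeing the data. No paired analysis was possible because the groups share no sample numbers. The dimmest Cd36 probe set was below the signal minimum and was tested only without that filter. The causes of these shifts were not tested.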

Other observations

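Elovl5 lies next to Gclc, the catalytic subunit of glutathione synthesis, in the RefSeq order of protein-coding genes on chromosome 9 (GRCm38.p6), and the log2 differences of the pair had opposite signs. Gclc was called higher on both of its probe sets, with signals of 2812 to 3255 in knockout and 1918 to 2232 in wild-type livers on the brighter one (log2 0.58 ± 0.11 SE, adjusted p = 0.0154), while Elovl5 lay lower without passing the test. This pair was noticed after the values were seen.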
